A study of Danio rerio with 18 samples.

Results

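Bisphenol A (BPA) is a plastic monomer that binds estrogen receptors weakly. In fish, the liver makes the yolk precursor vitellogenin when estrogen receptors are activated, so that vitellogenin genes serve as markers of estrogenic exposure. A larva at the end of its first week has a beating heart, a differentiated gut and liver, and a nervous system whose axons are still growing. The genes of axon guidance, cell adhesion, matrix, muscle, metabolism and the daily clock were therefore examined together with the estrogen response.

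The comparison described here is that of whole zebrafish larvae exposed to 1500 µg/L BPA with larvae held in vehicle. Larvae were exposed from 3 hours after fertilization for 7 days, in egg water with 0.05% ethanol, and control larvae were kept in the same water with ethanol alone. RNA of pooled whole larvae was labelled with Cy5. It was hybridized on 2-colour spotted oligonucleotide arrays against a common Cy3-labelled reference, RNA of whole wild-type adults with more male than female material. Every value is a log2 ratio of larval over adult signal, and a log2 fold change is the mean ratio at 1500 µg/L minus that of the control larvae, so that a value of 1 is a doubling. The members were found by their sample titles, 4 scans at 1500 µg/L and 5 of control larvae, 9 of the 18 scans in the series. Replicates 3 and 4 at 1500 µg/L held the same Cy5 foreground at 99.98% of spots and control replicates 4 and 5 at 99.83%, against at most 0.48% for any other pair. Such pairs were taken as repeated scans of 1 array and their mean was used, which left 3 arrays at 1500 µg/L and 4 control arrays. Of 22980 probes on each array, those with a symbol stood for 9258 genes. Because whole larvae were pooled, fewer cells of a type and less RNA per cell cannot be told apart.

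The arrays of the 2 groups differed in brightness. The median Cy3 background was 129, 171 and 92 scanner units at 1500 µg/L, against 215, 247, 229 and 193 units in the control larvae, so that the groups did not overlap in this measure and its part in the results cannot be told apart from that of exposure. The authors had kept a ratio for 5127 to 14721 spots per array at 1500 µg/L and for 6578 to 19980 in the control group. The ratios of the 3 exposed arrays correlated across probes at r = 0.36, 0.60 and 0.26, with the pair of replicates 1 and 3 the closest. BPA replicate 2 correlated with the control arrays at a median r of 0.57, higher than with either of the other exposed arrays. Pairs of control arrays lay between 0.37 and 0.75, and control replicate 4 was the most distant, at a median of 0.43 from the others. Of the markers of larval and adult material, 4 embryonic globins had a mean ratio of -0.01 to 0.11 on the exposed arrays and 0.03 to 0.31 on the control arrays. The mean of 6 ovary genes was -0.93 to 0.11 on the exposed arrays and -0.63 to 0.18 on the control arrays. The adult globin hbba1 was below 0 on every array, at -2.47 to -0.29 on the exposed and -1.06 to -0.26 on the control arrays. Among 5 testis and germ line genes, with means of -0.30 to 0.27 and -0.21 to 0.31, piwil1 (-0.58, SE 0.27) and dmrt1 (0.79, SE 0.37) had an unadjusted p under 0.05 between the groups.

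Most probes were dim, and 2 sets of values were therefore examined. In the first, spots without a ratio kept by the authors were left out, which left 3942 probes with at least 3 values in each group, called the kept spots below. In the second, every spot was used, for all 22980 probes. Among the kept spots 0 of 3942 probes (0.0%) passed an adjusted p of 0.05 by limma, and the lowest adjusted p was 0.45. An unadjusted p under 0.05 was found for 136 probes that were higher and 149 that were lower at 1500 µg/L, 3.45% and 3.78% of those tested and 7.23% in all, and with the authors' normalized ratios for 124 higher and 211 lower. Over all kept probes the median log2 fold change was -0.09. With every spot used, 3 of 22980 probes (0.0131%) passed, and all 3 were higher at 1500 µg/L. An unadjusted p under 0.05 was found there for 1868 higher and 704 lower probes, or 8.13% and 3.06% (11.2% in all), and without background correction for 1469 and 974. All 3 exposed arrays lay above every control array with a value at 116 of the kept probes (2.94%) and below them at 216 (5.48%). Of the 3942 kept probes 567 had only 3 control values, and fewer values overlap less often by arithmetic alone. With every spot used, the exposed arrays lay above all 4 control arrays at 1459 probes (6.35%) and below them at 836 (3.64%). An exact permutation test of 3 against 4 arrays cannot give a 2-sided p below 0.057, so that the model over all arrays carries the tests. The labels number the replicates and do not state whether they came from separate exposures. The p-values measure the spread between these arrays.

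pak2b, a p21-activated kinase that acts on the actin cytoskeleton downstream of small GTPases, had a higher ratio of larval over reference signal at 1500 µg/L. Its log2 ratio was -0.47, -0.26 and -0.54 on the exposed arrays, against -1.91, -2.15, -2.49 and -1.85 on the control arrays, a log2 fold change of 1.68 (SE 0.27, adjusted p = 0.045 by limma). The groups were apart by more than 1 log2 unit. A second pak2b probe did not share this and had a log2 fold change of -0.59 (SE 0.28, unadjusted p = 0.050). The other probes that passed have no symbol. Probe 5447697 had ratios of -0.64, -0.61 and -1.02 at 1500 µg/L, against -2.62, -2.83, -2.81 and -2.48 in control larvae (log2 fold change 1.93, SE 0.29, adjusted p = 0.030). Probe 5452543 had -0.08, -0.03 and 0.36 at 1500 µg/L, against -2.26, -1.33, -1.72 and -1.92 in control larvae (1.89, SE 0.27, adjusted p = 0.030). The authors had kept a ratio for each of the 3 probes on only 1 exposed array. They had kept it on 4 control arrays for probe 5447697 and on 3 for pak2b and for probe 5452543. With a block for arrays of low Cy3 background none of the 3 passed (adjusted p = 0.16 each, with log2 fold changes of 1.65 to 1.74), and without background correction the log2 fold changes were 0.64 to 0.88. The block marked arrays with a median Cy3 background under 150 units. These were BPA replicates 1 and 3, but not BPA replicate 2 or any control array, and replicates 2 and 3 at 4500 µg/L. It thus lowers the precision of this comparison, and a lost call there decides nothing about the background. Of the 7 fits that left out 1 array, pak2b and probe 5447697 passed only in the one without control replicate 4, and probe 5452543 also in that without control replicate 2 (adjusted p = 0.020 to 0.18 over the 3 probes). Over all probes, 0 passed without control replicate 1 or 3 or without BPA replicate 2 or 3, 1 passed without control replicate 2 or BPA replicate 1, and 5 passed without control replicate 4.

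**Figure D1:**
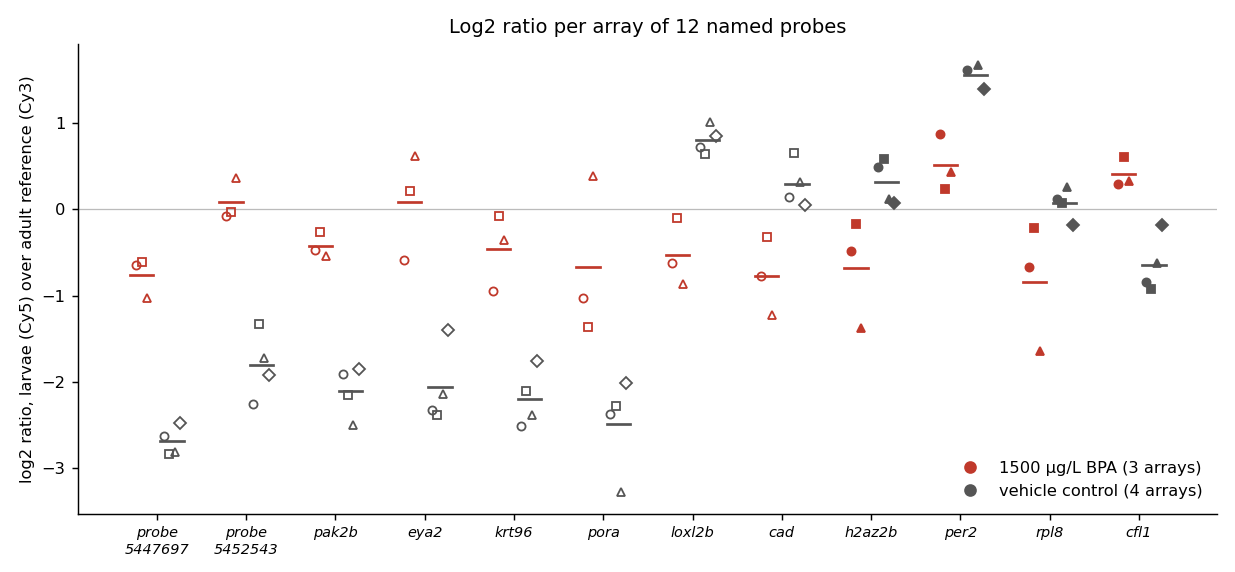
Log2 ratio of larval over adult signal (vertical axis) on each array for 12 named probes, with 1500 µg/L BPA in red (3 arrays) and vehicle control in grey (4 arrays). Marker shapes stand for replicates 1 to 4, filled markers for values from kept spots, open markers for values from every spot, and horizontal bars for group means. The 3 probes on the left passed the test and their groups lie apart by more than 1 log2 unit, while the others did not pass.

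The signal behind these ratios was read in each channel after subtraction of the local background. In the larval channel, pak2b had 169, 382 and 85 scanner units at 1500 µg/L and 125, 146, 75 and 198 units in control larvae, and the groups overlapped. In the adult reference channel it had 330, 518 and 225 units on the exposed arrays and 551, 680, 647 and 704 units on the control arrays, with no overlap. Probe 5452543 averaged 152 ± 25.3 units in the larval channel at 1500 µg/L (SD, n = 3) and 156 ± 51.9 in control larvae (SD, n = 4). In its reference channel it averaged 238 ± 52.6 units on the exposed arrays and 602 ± 46.2 on the control arrays. For probe 5447697 the larval channel held 192 ± 143 units at 1500 µg/L and 94.3 ± 39.3 in control larvae, again with overlap, and the reference channel 411 ± 192 and 706 ± 69.2 units. At these 3 probes the groups thus lay apart in the unscaled reference signal. They also did so in the median reference signal over all spots, given below. The part of overall array brightness in this was not tested beyond the block for the Cy3 background. Over all spots the median reference signal was 320, 336 and 201 units on the exposed arrays and 435, 469, 514 and 462 units on the control arrays. The median larval signal was lower on the exposed arrays too, at 226, 215 and 120 units against 305, 318, 336 and 330. Both channels were thus dimmer on the exposed arrays, and the signals of the 3 probes are not scaled for this.

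**Figure D2:**
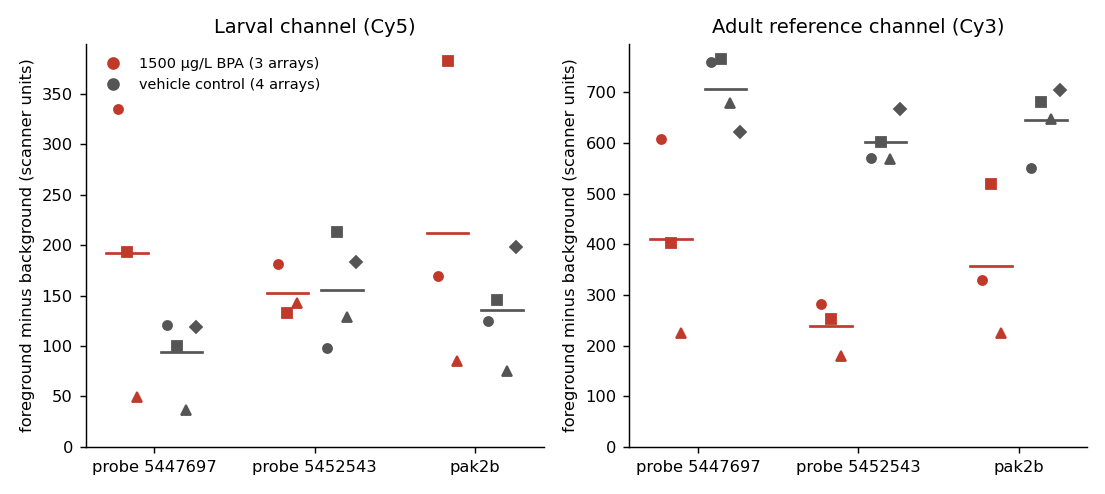
Foreground minus local background in scanner units (vertical axes, from 0) of the 3 probes that passed the test, in the larval channel on the left and the adult reference channel on the right, with 1500 µg/L BPA in red and vehicle control in grey. Each marker is an array and each bar a group mean. The groups overlap in the larval channel at all 3 probes, and in the reference channel the exposed arrays lie below the control arrays. The signals are not scaled for the brightness of each array, which was lower on the exposed arrays in both channels.

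Probes that were low in larvae relative to adults moved together. To group them without using the 7 arrays compared, probes were sorted by their mean ratio on the 5 arrays at 500 µg/L BPA. Of the 1301 probes with a mean under -1 there, 660 were higher and 1 lower at 1500 µg/L at an unadjusted p under 0.05, or 50.7% and 0.0769%. Among 21617 probes with a mean between -1 and 1 the shares were 5.57% and 3.25%. The median log2 fold change of the low group was 0.89, against 0.01 for the middle group. BPA replicates 1 and 3, which had the lowest Cy3 backgrounds, were above the control mean by a median of 0.90 and 1.29 at these probes, and BPA replicate 2 by 0.41. Control replicate 4 stood above the other control arrays by a median of 0.61 there, more than BPA replicate 2 above the control mean. In the larval channel these probes had a median of 115, 82.0 and 82.0 units above background at 1500 µg/L and 112, 140, 128 and 234 in control larvae. In the reference channel they had 328, 404 and 219 units on the exposed arrays and 542, 661, 654 and 642 on the control arrays. At 4500 µg/L the median log2 fold change of these probes was 1.202, and at 500 µg/L it was 0.25. The median Cy3 background was 243, 110, 111 and 162 units on the arrays at 4500 µg/L. Whether the shift of these probes follows the background was not tested. Over all probes the SD of the ratios was 0.61, 0.64 and 0.57 on the exposed arrays, against 0.70, 0.73, 0.73 and 0.79 on the control arrays. The median absolute deviation did overlap, at 0.357, 0.291 and 0.319 on the exposed arrays against 0.328, 0.333, 0.334 and 0.457 on the control arrays. Many of the higher genes named below had a mean control ratio under -1. Where their ratios are not printed, these are thrap3b, srd5a2b, camk2a, sdhda, gpx1b, nfe2l2a, park7, adh5l, cyp2v1, sult1st2, dgat2, etfa, apoeb, lig1 and cdk1, with means of -2.58 (cdk1) to -1.02 (park7), and the part of the low ratio in their differences was not tested.

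**Figure D3:**
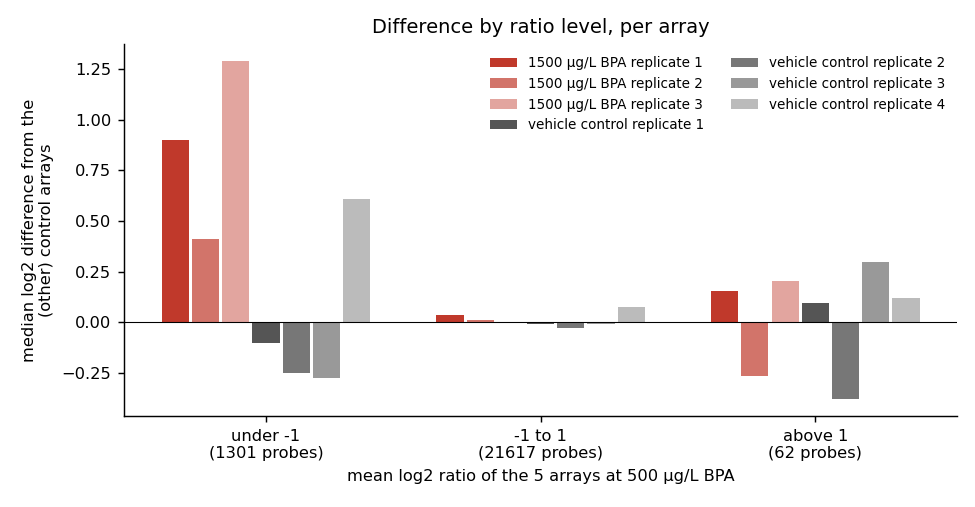
Median log2 difference of each array (vertical axis) in 3 classes of probes sorted by their mean ratio on the 5 arrays at 500 µg/L BPA (horizontal axis). Red bars are exposed arrays against the control mean and grey bars are control arrays against the other control arrays. In the class under -1 the exposed arrays stand at 0.90, 0.41 and 1.29 and control replicate 4 at 0.61, while all bars of the middle class are near 0.

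Among the kept spots no gene passed, and the following had an unadjusted p under 0.01 (adjusted p = 0.65 by limma for each). The highest was dnajb9b, an Hsp40 cochaperone of the endoplasmic reticulum, with ratios of 1.03, 0.14 and 1.51 at 1500 µg/L against -0.68, 0.17 and -3.82 in the 3 control arrays that kept it. Its log2 fold change of 2.34 (SE 0.67) thus rested in large part on the very low control replicate 4, and the groups overlapped. cfl1, the actin-severing factor cofilin, had 0.29, 0.60 and 0.33 at 1500 µg/L against -0.85, -0.93, -0.62 and -0.18 in control larvae (1.05, SE 0.28), without overlap, although its other probes had -0.25 and -0.80. ppardb, a lipid-sensing nuclear receptor, had 1.64, 0.96 and 0.83 against 0.36, 0.55, 0.31 and -1.07 (1.104, SE 0.38), and pthlha, a parathyroid hormone-like peptide of skeletal development, 0.61, 0.28 and 0.44 against -0.11, -0.18 and -0.82 (0.82, SE 0.28). In both, every exposed array was above every control array, although the other ppardb probes had -0.45, -0.13 and 0.003. Others on this side were pcyt1aa, of phosphatidylcholine synthesis (1.08, SE 0.37), the urea transporter slc14a2 (0.97, SE 0.34), lsm7, of the RNA decay and splicing machinery (0.94, SE 0.30), the complement protease c1r (0.94, SE 0.32), prom1b (0.89, SE 0.31), the Golgi protein golim4b (0.87, SE 0.29) and the zinc transporter slc39a9 (0.78, SE 0.28).

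On the lower side, h2az2b, which encodes the histone variant H2A.Z, had ratios of -0.49, -0.17 and -1.37 at 1500 µg/L against 0.50, 0.58, 0.11 and 0.07 in control larvae, a log2 fold change of -0.99 (SE 0.29). per2, a repressor of the daily clock that light induces in zebrafish, had 0.87, 0.23 and 0.43 at 1500 µg/L against 1.61, 1.67 and 1.398 in the 3 control arrays that kept it (-1.05, SE 0.35). The groups were apart for both among the kept spots. With every spot used, per2 was at 0.54 on control replicate 2, its groups overlapped and its log2 fold change was -0.79 (SE 0.36). coro1a, an actin regulator of white blood cells, had -2.06, -0.28 and -1.74 against -0.48, -0.12, -0.46 and -0.27 (-1.03, SE 0.35), and BPA replicate 2 lay among the control arrays. The same array was the closest to the control group for the ribosomal protein rpl8, with -0.67, -0.21 and -1.64 at 1500 µg/L against 0.12, 0.08, 0.26 and -0.18 in control larvae (-0.91, SE 0.30), and the second rpl8 probe had -1.11 (SE 0.40). The remaining genes were the protocadherin pcdh2g12 (-1.03, SE 0.36), prtfdc1b (-0.96, SE 0.29), the calponin cnn3b (-0.94, SE 0.31), the kinase nlk1 (-0.92, SE 0.29), the ubiquitin ligase peli2 (-0.90, SE 0.32), the chromatin reader brd3a (-0.87, SE 0.29), zgc:92429 (-0.85, SE 0.29) and got2b, the mitochondrial aspartate aminotransferase (-0.83, SE 0.26). brd3a had 3 further probes, at 1.02, -0.17 and -0.21.

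With every spot used, the named genes with the largest positive differences had mostly low control ratios. eya2, a transcriptional coactivator of muscle and sensory placodes, had ratios of -0.59, 0.21 and 0.62 at 1500 µg/L against -2.32, -2.38, -2.14 and -1.40 in control larvae (2.14, SE 0.43, adjusted p = 0.11). krt96, a keratin, had -0.95, -0.08 and -0.36 against -2.51, -2.11, -2.39 and -1.76 (1.73, SE 0.33, adjusted p = 0.11). pora, the reductase that passes electrons to cytochrome P450 enzymes, had -1.03, -1.37 and 0.38 against -2.37, -2.28, -3.28 and -2.01 (1.81, SE 0.38, adjusted p = 0.14). All 3 exposed arrays were above the control arrays in each, yet none passed. A second kind was set by BPA replicate 2: popdc3, a muscle membrane protein, had -0.36, 2.42 and -0.33 at 1500 µg/L against -1.73, -1.29, -1.26 and -1.41 in control larvae (2.00, SE 0.53). pcdh1g18, a protocadherin, had 0.02, 3.07 and 0.16 against -1.30, -0.40, -0.95 and -0.93 (1.97, SE 0.50), and fhl2a, a LIM protein of muscle, -2.04, 2.94 and -0.90 against -2.64, -2.08, -2.04 and -1.38 (2.04, SE 0.71). In these, 1 exposed array stood far above the other two, and the authors had kept a ratio for popdc3 and fhl2a on 0 exposed arrays. pxmp2, a channel of the peroxisomal membrane, had 0.68, 1.76 and 1.47 against 0.17, -1.46, -1.50 and -0.17 (2.04, SE 0.52), with control replicates 2 and 3 far below the other two.

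The negative differences were smaller. loxl2b, a lysyl oxidase that cross-links collagen, had -0.62, -0.10 and -0.86 at 1500 µg/L against 0.72, 0.64, 1.02 and 0.85 in control larvae (-1.34, SE 0.27, adjusted p = 0.11). All 3 exposed arrays were below 0 and all 4 control arrays above it. cad, the enzyme that opens pyrimidine synthesis, had -0.77, -0.32 and -1.22 against 0.14, 0.66, 0.32 and 0.05 (-1.06, SE 0.26, adjusted p = 0.18). exosc10, a nuclease of the RNA exosome, had -0.47, -0.33 and -0.60 against 0.61, 0.77, 0.50 and 0.37 (-1.03, SE 0.29, adjusted p = 0.22), and its second probe had -0.70 (SE 0.29). Groups were apart in all 3. rpl27a (-1.18, SE 0.35), shcbp1 (-1.16, SE 0.31), nme7 (-1.14, SE 0.30), the pseudouridine synthase trub2 (-1.11, SE 0.34), the aminopeptidase rnpep (-1.02, SE 0.29) and the glycine receptor subunit glrba (-1.01, SE 0.35) were further members of this side.

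The estrogen response was represented by 6 vitellogenin genes and by 9 receptors and targets, and none passed the test. vtg4 had ratios of 0.29, -0.91 and -0.36 at 1500 µg/L against -2.02, -1.22, -1.61 and -0.95 in control larvae (1.13, SE 0.38, adjusted p = 0.29), with BPA replicate 2 only just above the highest control array. Its ratio had been kept by the authors on 1 exposed and 3 control arrays. vtg7 went the other way, at -0.54, 0.25 and -0.88 against 0.20, 0.75, -0.35 and 0.59 (-0.69, SE 0.30, adjusted p = 0.40). vtg2 (-0.39), vtg3 (0.35), vtg5 (-0.14) and vtg6 (-0.02) had unadjusted p-values of 0.12 to 0.94 by limma. Among the receptors, esr2a had -0.34, -0.50 and -0.24 at 1500 µg/L against -0.16, 0.34, 0.40 and 0.11 (-0.53, SE 0.24, adjusted p = 0.42), while esr1 was at 0.31 (SE 0.24) and esr2b at 0.03 (SE 0.36). The brain aromatase cyp19a1b, an estrogen-induced gene of radial glia in fish, was at -0.35 (SE 0.25). Of 14 genes of sex steroid synthesis, 1 had an unadjusted p under 0.05, the steroid reductase srd5a2b (0.84, SE 0.35). In the list for the thyroid axis, with 11 genes measured, the receptors thraa and thrb were at -0.07 and 0.17. The deiodinases dio1 and dio2 were at 0.11 and -0.29. Other members of the list were thrap3b at 1.45 (SE 0.35, adjusted p = 0.18) and hhex, a transcription factor of liver and thyroid, at -0.54 (SE 0.23). The hormone carrier ttr had 0.36, 0.36 and 0.60 at 1500 µg/L against -1.89, 0.35, 0.03 and -0.21 in control larvae (0.87, SE 0.39). Its difference thus rested in large part on control replicate 1, and the authors had kept its ratio on 0 exposed and 1 control array.

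Lists of genes were read against the share over all genes, with 1 probe per gene. With every spot used, 7.01% of 9258 genes were higher and 3.40% lower at an unadjusted p under 0.05, and among the kept spots 2.74% and 4.32% of 1900 genes. pak2b was the only member of any list to pass the adjusted threshold. In the adhesion and cytoskeleton lists the higher and lower members were 8 and 2 of 60 integrin, focal adhesion and actin genes, 5 and 1 of 45 tight junction and keratin genes, and 3 and 0 of 23 endothelial genes. In the kept spots they were 1 and 1 of 14, 0 and 1 of 12, and 0 and 0 of 6 genes in the same order of lists. Of the actin group, cap2 had 1.83 (SE 0.65), from control ratios under -2, and the focal adhesion scaffold pxna 0.98 (SE 0.34), whereas ezrb, which ties actin to the membrane, had -0.57 (SE 0.21). For pxna the authors had kept a ratio on 0 exposed and 2 control arrays. cldni, a claudin, had 0.36, 1.36 and 0.89 at 1500 µg/L against -0.35, 0.02, -0.15 and -0.54 in control larvae (1.12, SE 0.29, adjusted p = 0.19). cldn7b had 0.44, 0.74 and 0.30 against -0.28, -0.27, -0.27 and -0.16 (0.74, SE 0.25), although its second probe was at -0.06. For cldn7b the authors had kept a ratio on 0 exposed and 2 control arrays. In both claudins all exposed arrays were above all control arrays, and neither began from a low ratio. Of the endothelial genes, the transcription factor erg had 1.41 (SE 0.33), the caveolin cav2 0.71 (SE 0.30) and the VEGF receptor flt1 0.85 (SE 0.38), with erg between -2.74 and -1.60 in control larvae. The list median was -0.01, with 10 genes above 0 and 13 below it.

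Axon guidance genes were near the share over all genes, with 5 of 59 higher and 3 lower. Besides pak2b, nrp1b, a semaphorin coreceptor, had 1.17 (SE 0.38) from control ratios of -3.34 to -1.90, the related kinase pak1 had 0.78 (SE 0.29), and slit2, a repellent ligand of growing axons, had -0.84, -0.23 and -0.63 at 1500 µg/L against 0.16, 0.17, -0.16 and 0.33 (-0.70, SE 0.28, adjusted p = 0.37). Of 25 neuron and synapse genes, 0 had an unadjusted p under 0.05, and their median was -0.19. Hair cell and neuromast genes were measured for 11, of which eya1 (-0.51, SE 0.24) and s100s (-0.52, SE 0.25) were lower at an unadjusted p under 0.05. For eya1 the authors had kept a ratio on 0 exposed and 0 control arrays. In the list of long-term potentiation and calcium signaling, camk2a had 1.75 (SE 0.47) and camk2d2 -0.86 (SE 0.32), 2 subunits of the same calcium-dependent kinase with opposite signs on these probes. The other camk2d2 probes had 0.06 (SE 0.27) and -0.43 (SE 0.48). Muscle genes were near the share over all genes, at 4 higher and 2 lower of 58: desma, the intermediate filament desmin, had 1.38 (SE 0.41) on one probe and -0.11 (SE 0.31) on the other, and the fast myosin light chain mylpfa had -1.16, -0.36 and -1.66 at 1500 µg/L against -0.32, -0.03, -0.01 and -0.76 (-0.78, SE 0.31). For the higher desma probe the authors had kept a ratio on 0 exposed and 1 control array.

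**Figure D4:**
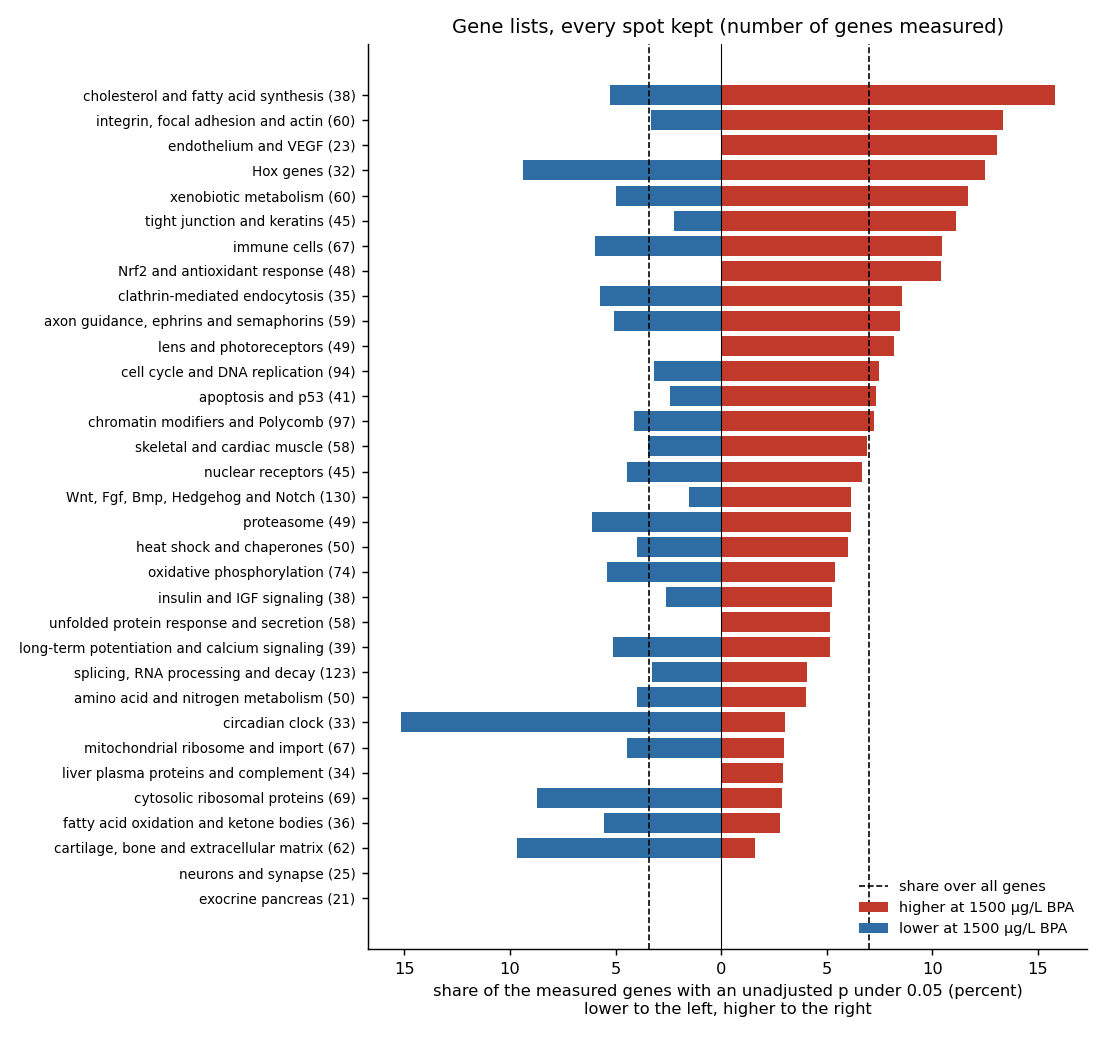
Share of measured genes with an unadjusted p under 0.05 in each list with at least 20 genes (horizontal axis in percent, every spot used), higher at 1500 µg/L BPA to the right in red and lower to the left in blue, with the number of genes measured in brackets. Dashed lines mark the share over all genes, 7.01% higher and 3.40% lower. The circadian clock, cartilage and matrix, and ribosomal lists extend farther to the left than to the right, and neurons and exocrine pancreas have no bar.

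The circadian clock, the extracellular matrix and the ribosome were among the lists with more lower than higher members over all spots, but of these 3 only the clock list also had this among the kept spots. Of 33 clock genes, 5 were lower and 1 higher at an unadjusted p under 0.05, or 15.2% and 3.03%, and among the kept spots 3 of 10 were lower. cry3a, a cryptochrome, had -0.46, -0.24 and -0.57 at 1500 µg/L against -0.05, 0.72, 0.23 and 0.53 (-0.78, SE 0.26, adjusted p = 0.29). Its ratio had been kept by the authors on 1 exposed and 1 control array. The clock kinase csnk1da had a log2 fold change of -0.59 (SE 0.25), and the groups were apart for both cry3a and csnk1da. A second csnk1da probe had -0.15 (SE 0.30), and its groups overlapped. tefa, a light-responsive transcription factor, had -0.89 (SE 0.33) and clockb, an activator of the loop, -0.61 (SE 0.28), while clocka was at 0.52 (SE 0.36), per1b at 0.41 (SE 0.35) and the melatonin enzyme aanat1 at 1.80 (SE 0.79), with control replicate 4 at -4.07 and the other control arrays above 0. The list median was -0.13, and -0.33 for the kept members beside -0.12 for all kept genes. Over the kept members the exposed arrays lay at a median of -0.32, -0.16 and -0.42 from the control mean. Control replicate 4 lay at -0.23 from the other control arrays there, lower than BPA replicate 2. With every spot used the exposed arrays were at -0.11, -0.08 and -0.19, and control replicate 4 was at -0.21. The hour of sampling is not given in the sources used here.

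Of 62 cartilage, bone and matrix genes, 6 were lower and 1 higher, or 9.68% and 1.61%. Of the 14 kept ones, 0 were lower and 1 higher, with a median of -0.02. Besides loxl2b, the proteoglycan dcn had -0.75, -0.73 and -1.03 at 1500 µg/L against 0.35, 0.36, -0.38 and -0.38 in control larvae (-0.83, SE 0.30), although its second probe was at 0.11. ogna had -0.92 (SE 0.40), thbs3a -0.86 (SE 0.34), the collagen prolyl hydroxylase p4ha2 -0.66 (SE 0.29) and matn4 -0.62 (SE 0.27). The cartilage collagens col2a1a (-0.68, SE 0.40) and col2a1b (-0.56, SE 0.31) did not reach an unadjusted p under 0.05. pthlha was the higher member.

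Of 69 cytosolic ribosomal proteins, 6 were lower and 2 higher at an unadjusted p under 0.05, and among the kept spots 2 were lower and 2 higher of 30. rpl27a, rpl8, rpl5a (-0.67, SE 0.27), rplp1 (-0.62, SE 0.26), rpl6 (-0.58, SE 0.25) and rps27.2 (-0.78, SE 0.37) were lower, and rps28 (0.73, SE 0.25) and rpl36a (0.81, SE 0.35) higher. The exposed arrays did not share this: BPA replicates 1 and 3 were below the control mean by a median of -0.32 and -0.46 over these genes, and BPA replicate 2 was above it by 0.17, while control replicate 1 stood at -0.32 from the other control arrays. Among the kept spots, 14 of 15 genes of oxidative phosphorylation had a log2 fold change below 0, with a median of -0.38, beside 61.4% of all kept genes below 0 and a median of -0.12. Here each exposed array was below the control mean, at -0.49, -0.22 and -0.69, but control replicate 2 also lay at -0.33 from the other control arrays. Only atp5if1b, the inhibitor of ATP synthase, had an unadjusted p under 0.05 among them (-0.63, SE 0.28). Over all spots, 44 of 74 such genes were below 0, the median was -0.10, and 4 were higher and 4 lower, with the succinate dehydrogenase subunit sdhda at 1.26 (SE 0.36) and the ATP synthase subunit atp5po at -0.90 (SE 0.31). For atp5po the authors had kept a ratio on 1 exposed and 0 control arrays.

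Stress and metabolic lists were mixed. Of 58 genes of the unfolded protein response and secretion, 3 were higher and 0 lower: dnajb9b, its paralog dnajb9a and derl3, which helps to export misfolded proteins from the endoplasmic reticulum. dnajb9a had 0.81, 1.82 and 0.78 at 1500 µg/L against 0.26, -0.15, 0.06 and -0.19 in control larvae (1.14, SE 0.30, adjusted p = 0.21). derl3 had -0.72, -0.70 and -0.72 against -1.59, -1.96, -1.68 and -1.29 (0.92, SE 0.27). Both were apart, but the list median was -0.01 and 31 of the 58 genes were below 0. Of 48 antioxidant genes, 5 were higher and 0 lower, among them the ferritin subunit fth1a with -0.04, 0.24 and 0.45 against -0.96, -0.81, -0.38 and -0.88 (0.97, SE 0.26, adjusted p = 0.21), whose second probe was at 0.04. gpx1b (0.99, SE 0.36), nfe2l2a, the regulator Nrf2 (1.098, SE 0.44), and park7 (0.83, SE 0.34) were others, and the list median was -0.02. Among the kept spots 0 of 7 antioxidant genes were higher and 0 lower, with a median of -0.35. Of 60 genes of xenobiotic metabolism, 7 were higher and 3 lower, and among the kept spots 0 and 0 of 11. Besides pora, the alcohol dehydrogenase adh5l had a log2 fold change of 1.38 (SE 0.31, adjusted p = 0.17), cyp2v1 had 1.38 (SE 0.33) with a second probe at -0.35, and sult1st2, a sulfotransferase, 1.36 (SE 0.40).

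Cholesterol and fatty acid synthesis had 6 higher and 2 lower of 38 genes, or 15.8% and 5.26%. Among the kept spots 0 were higher and 1 lower of 8, with 6 below 0 and a median of -0.07. The authors had kept a ratio for mvk and dgat2 on only 1 exposed array each. mvk, the mevalonate kinase, had 0.30, 0.14 and -0.28 at 1500 µg/L against -0.81, -1.43, -2.21 and -1.20 (1.47, SE 0.47), dgat2, of triglyceride synthesis, had 0.98 (SE 0.36). hmgcs1, an enzyme of the same sterol pathway, had -0.90 (SE 0.34). Of 36 genes of fatty acid oxidation, the electron carrier etfa had 1.26 (SE 0.43) and the fatty acid binding protein fabp1b.1 -0.70, -0.72 and -0.56 at 1500 µg/L against -0.04, 0.46, 0.46 and -0.13 in control larvae (-0.85, SE 0.27). In the insulin list, irs2a, an adaptor of the insulin receptor, had -0.50, 2.72 and 0.42 at 1500 µg/L against -1.38, -0.61, -0.29 and -1.05 (1.71, SE 0.50), and its second probe had 1.05 (SE 0.32). ins itself had -0.35, -0.27 and -0.25 against 0.19, 0.14, 0.58 and 0.42 (-0.62, SE 0.24, adjusted p = 0.36), but the authors had kept its ratio on 1 exposed and 0 control arrays. Of 21 exocrine pancreas and 11 intestine genes, 0 had an unadjusted p under 0.05, with medians of -0.04 and -0.19, and among 34 liver plasma proteins and complement genes 1 was higher, the lipoprotein apoeb (1.06, SE 0.43).

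Of the regulators, 4 Hox genes were higher and 3 lower of 32. hoxb7a had -1.16, -1.20 and -0.68 at 1500 µg/L against -2.45, -2.49, -2.12 and -2.72 (1.44, SE 0.32, adjusted p = 0.17), with 0.44 on its second probe, and its neighbour in the cluster hoxb8a had -0.48, -0.53 and -0.86 against 0.35, 0.23, 0.09 and 0.28 (-0.86, SE 0.32), with 0.06 on its second probe. Cell cycle genes were close to the share over all genes, with 7 higher and 3 lower of 94, among them the DNA ligase lig1 (1.24, SE 0.29) and cdk1 (1.08, SE 0.35) on the higher side and the checkpoint protein bub3 (-0.76, SE 0.28) on the lower. Of 67 immune genes, 7 were higher and 4 lower, or 10.4% and 5.97%. The list median was -0.02, with 33 genes above 0 and 34 below it, so that the list did not move to either side. The 7 higher ones are not listed here. The 4 lower ones were coro1a, the NF-kappaB subunit rela at -0.79 (SE 0.26), the chemokine cxcl12a at -0.81 (SE 0.26) and cebpa at -0.70 (SE 0.23). The authors had kept a ratio for cxcl12a on 0 exposed and 1 control array, and for cebpa on 1 exposed and 1 control array. Developmental signaling genes of the Wnt, Fgf, Bmp, Hedgehog and Notch pathways, 130 in number, had 8 higher and 2 lower, or 6.15% and 1.54%, and a median of 0.00. tgfb2 had 0.19, 0.36 and 0.16 at 1500 µg/L against -0.79, -1.08, -0.50 and 0.12 (0.80, SE 0.28).

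Genes with more than 1 probe gave a check within the arrays. Of the probes named by the rule, those of 45 genes had other probes on the arrays, 57 in all, and 29 of the 57 had a log2 fold change of the same sign. Other probes of slc14a2 (-0.06), cav2 (-0.04), cebpa (-0.02), cdk1 (0.04) and gpx1b (0.06) lay near 0. A second vtg5 probe was at 0.40. Probes of a gene can differ in the transcript they bind and in brightness, and which of them measures the gene is not known from the files. Among the genes in which a second probe had an unadjusted p under 0.05 in the same direction were exosc10, irs2a and rpl8, while cfl1 and brd3a had such a probe in the opposite direction.

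Set beside the other concentrations, which share the control arrays, no probe differed between 1500 and 500 µg/L or between 1500 and 4500 µg/L at an adjusted p under 0.05 by limma, with 1757 and 971 of 22980 probes at an unadjusted p under 0.05. pak2b had log2 fold changes of 0.88, 1.68 and 1.66 at 500, 1500 and 4500 µg/L, krt96 of 0.41, 1.73 and 1.73, and eya2 of 0.92, 2.14 and 1.56. loxl2b had -0.56, -1.34 and -0.78, cad -0.15, -1.06 and -0.64, and h2az2b -0.11, -0.99 and -0.99. The named genes were chosen mostly by their values at 1500 µg/L, which by itself favours a value farthest from 0 there. No pattern over the concentrations can therefore be read from them. Several stood farthest from 0 at 1500 µg/L, as popdc3 with 0.25, 2.00 and 0.79 and dnajb9a with 0.50, 1.14 and 0.14. So did cldni with 0.64, 1.12 and 0.36, and nr6a1a, a germ cell nuclear receptor, with -0.20, 1.25 and 0.07. The value of popdc3 was set by BPA replicate 2, as given above. For nr6a1a the value came from BPA replicate 3, with ratios of 0.77, 0.50 and 2.59 at 1500 µg/L against -0.15, 0.18, -0.17 and 0.28 in control larvae. tefa stood at 0.37, -0.89 and -0.57.

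**Figure D5:**
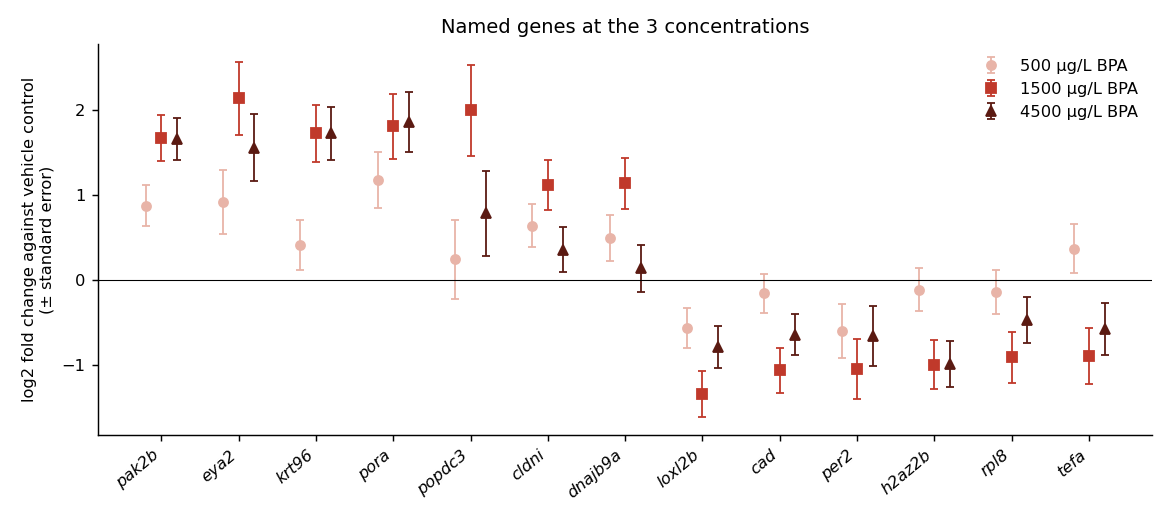
Log2 fold change against vehicle control (vertical axis, error bars 1 standard error of the limma fit) of 13 named genes at 500, 1500 and 4500 µg/L BPA. The 3 comparisons use the same 4 control arrays. pak2b, krt96 and h2az2b have almost the same value at 1500 and 4500 µg/L, and popdc3 and dnajb9a are highest at 1500 µg/L. The genes were chosen by their values at 1500 µg/L, which favours large differences there.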

How the data were processed

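Scans of 18 hybridizations were read. As deposited, the scanner intensity of each channel is an unnormalized foreground and local background value per spot. Beside these the authors deposited Lowess-normalized log2 values of larval over reference signal, only where a feature carried no flag. For control replicate 1, a field was missing in 16654 lines that had no ratio, and these were realigned on reading. Symbols were updated through accession (55 spots), current symbol (3621) or older name (7978), and 70 kept the name of the file.

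Background was corrected by normexp (offset 50, mean foreground, median background) and loess-normalized within arrays with limma 3.58.1 in R 4.3.3. Repeated scans and spots of 1 accession were averaged, leaving 16 arrays. limma fitted the 4 groups together, with Benjamini-Hochberg adjustment over all tested probes, and the fit was tested on simulated data. The number of arrays limits the precision. The print-tip position is not given in the files used here. Python 3.11.15, numpy 2.4.6, pandas 2.3.3 and matplotlib 3.10.9 did the rest.

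The comparison, the 42 gene lists and the rule for named genes were chosen with earlier results of these data known. The rule took every probe that passed, in each set of values the 12 highest and 12 lowest log2 fold changes with a symbol and an unadjusted p under 0.01, up to 4 members per list (8 of the genes named by the study) with an unadjusted p under 0.05, and the vitellogenins. A few list members beyond it are given for context, chosen after their values were seen. In a list, each gene is the probe of highest mean intensity. No sequence is shown because none was used here. Alternatives varied background, normalization, spread, filters, blocks, arrays and tests.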

Additional observations from a re-analysis of the deposited data

Results flagged for a closer look

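A control array lay far from the other 3 for 18 of the 181 named probes with 4 control values, by Dixon's criterion, which flags about 1 in 20 unselected probes by chance alone. Control replicate 4 was the distant array in 11 of them, with ratios of -0.38 for bub3, -1.80 for c1r, -0.16 for cldn7b, -0.53 for efnb1, -0.79 for glrba, 1.32 for pop5, -1.07 for ppardb, -0.33 for prkcbb, 1.17 for thrb, -3.33 for ttc14 and -4.07 for aanat1. For c1r the nearest other control array was at -0.41, and for ttc14 at -0.39. Control replicate 1 was distant for cbx8a (-1.79), col2a1b (0.061) and nlk1 (0.90), control replicate 2 for rnd3b (-0.18) and control replicate 3 for dnajb4 (0.10), tgfb3 (-2.45) and uqcrq (-0.71). Groups of 3 arrays were not examined in this way, so that single distant arrays at 1500 µg/L, such as BPA replicate 2 for popdc3 and fhl2a, do not appear here. The named probes were chosen by their values on these arrays, so that no excess over chance can be read from the count of 18.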

How the results depend on the processing

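The 169 probes named by the rule and 21 further genes of the text were refitted under up to 26 other settings. Of 4231 refits 26 turned the sign, in 6 genes close to 0. vtg5 (-0.14) was 0.028 with array quality weights and -0.44 to 0.13 without 1 array. vtg6 (-0.02) was 0.079 with separate scans, 0.098 with median foreground, 0.056 with position in ID order and -0.14 to 0.16 without 1 array. esr2b (0.03) was -0.13 with separate scans, -0.0061 without background correction, -0.11 with median centring, -0.035 with position, -0.10 with weights and -0.35 to 0.30 without 1 array. thrb (0.17) was -0.094 with separate scans, -0.26 with position, -0.11 with the block for low Cy3 background and -0.018 to 0.60 without 1 array. dio1 (0.11) was -0.12 with median foreground, -0.075 with weights and -0.28 to 0.33 without 1 array. thraa (-0.07) was 0.10 with separate scans, 0.15 with median foreground and -0.35 to 0.21 without 1 array. A kept sign still allowed large moves: coro1a ranged over all settings between -1.57 and -0.012, efnb1 between 0.084 and 0.99, hmgcs1 between -1.25 and -0.23 and fhl2a between 0.57 and 3.24. In 114 refits a probe newly passed the adjusted threshold, 80 under array quality weights and 34 with separate scans, and in 39 a call on 1 of the 3 probes was lost.

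Among the kept spots the count of 0 probes became 54 (47 higher, 7 lower) with the 18 scans as separate arrays, 513 (168 higher, 345 lower) with array quality weights, 3 with at least 2 values per group, and 10 with weights and the block for low Cy3 background together, and was 0 in the other settings. Over all spots, the count of 3 became 361 (299 higher, 62 lower) with separate scans, 643 (539 higher, 104 lower) with weights, 5 with offset 16, 8 with median centring, 951 (839 higher, 112 lower) with a 2-step limma rule and 51 with the methods' ANOVA and t-test. It was 0 with only the BPA and control arrays, without background correction, with median foreground, scale normalization, the block for low Cy3 background, trend and robust spread, probes above the median intensity, or the methods' t-test after Benjamini-Hochberg adjustment, whose unadjusted count was 2044. Leaving out 1 array gave 0 to 5. Arrays that did not overlap were 332 probes among the kept spots, 1224 with separate scans, 1440 with at least 2 values per group, 217 with a value on every array and 424 to 1294 without 1 array. Over all spots they were 2295 probes, 979 above the median intensity and 3065 to 6493 without 1 array. Fewer values per group overlap less often by arithmetic alone, so that such counts cannot be compared with the others. The separate scans count repeated scans of 1 array as replicates. The cause of the other shifts was not tested. The combined block and weights, and scale normalization, were chosen after seeing the data.

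Higher and lower probes at an unadjusted p under 0.05 among the kept spots, 136 and 149, were 76 and 27 without BPA replicate 3 and 252 and 402 without BPA replicate 2. Over all spots the block for low Cy3 background left 1050 and 402. Same-numbered arrays correlated at -0.16, 0.39 and -0.04 in their deviations from group means. Arrays of different numbers lay between -0.36 and 0.26, so that 0.39 was the highest value of any pair. So few arrays cannot decide whether the numbers pair them. With the replicate block 0 probes passed in either set of values. Print-tip loess was not run.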

Other observations

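Clathrin-mediated endocytosis and the chromatin regulators were not described above. Of 35 endocytosis genes, 3 were higher and 2 lower (unadjusted p under 0.05, all spots): the clathrin assembly protein picalmb had a log2 fold change of 1.12 (SE 0.36) with -0.18 and -0.27 on its other probes, bin1b had -0.65 (SE 0.26) and the transferrin receptor tfr1b -0.92 (SE 0.37). Of 97 chromatin regulators, 7 were higher and 4 lower, with the DNA methyltransferase dnmt3ab at 1.11 (SE 0.40) and the Polycomb genes phc1 at 1.32 (SE 0.47) and cbx8a at 0.89 (SE 0.28). These 3, and picalmb, had mean control ratios under -1.

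Of 49 lens and photoreceptor genes, 4 were higher and 0 lower, and their median log2 fold change was 0.23, beside 0.01 for all genes. Among the kept spots 0 of 13 were higher or lower, 8 were below 0 and the median was -0.03. cryba2a, a lens crystallin, had ratios of -2.06, -1.81 and -0.58 at 1500 µg/L against -2.34, -2.23, -2.77 and -2.24 in control larvae (0.92, SE 0.35), and the lens membrane protein lim2.5 had 0.83 (SE 0.35).

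Among proteasome subunits, 35 of 49 had a log2 fold change below 0 (71.4%, beside 48.9% of all genes), with a median of -0.14 that was -0.22, 0.03 and -0.27 on the 3 exposed arrays. psma6a (-0.87, SE 0.28) and psmd1 (-0.78, SE 0.27) were lower and psmb1 (1.32, SE 0.43) and psmd4b (1.64, SE 0.39) higher at an unadjusted p under 0.05, and the second probes of psmb1 and psmd4b were at -0.42 and -0.26. For the higher psmb1 probe the authors had kept a ratio on 0 exposed and 3 control arrays.

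A list of 53 genes that the investigators had singled out on these arrays, which is no independent evidence, had 5 higher and 6 lower members with every spot used. Among them were rnd3b, a small GTPase, with -0.89, -0.25 and -0.57 at 1500 µg/L against 0.13, -0.18, 0.12 and 0.09 in control larvae (-0.61, SE 0.23), lrrc4.2 (-0.62, SE 0.27) and the ephrin ligand efnb1 (0.64, SE 0.27).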
